A study of Danio rerio with 8 samples.

Results

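The genes of the eukaryotic translation initiation factors were taken by name: every gene whose name in the Ensembl zebrafish table starts, case ignored, with eif1, eif2, eif3, eif4 or eif5. The rule found 65 of the 32520 deposited genes, and eif6 is not among them. RNA was sequenced from cells of zebrafish embryos at 3 days post fertilisation. The embryos carried Tg(fli1a:nEGFP), a green nuclear reporter of endothelium, and Tg(5.2lyve1b:DsRed), a red reporter of veins and lymphatics, and cells positive for both were sorted. The 4 libraries of the first group came from ddx21 mutants and the 4 of the second from their siblings, with replicate numbers 1 to 4 in each. The labels give neither the mutant allele nor the genotype of the siblings, nor how many embryos went into a library, and both groups carried both reporters. Ddx21 is a nucleolar RNA helicase that helps to make ribosomes, and the series title links it to lymphatic growth driven by Vegfc and to p53 and p21.

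Initiation is the step at which a ribosome is loaded onto an mRNA and finds the start codon. The eIF4 factors bind the cap and unwind the leader, eIF2 brings the initiator tRNA, eIF3 holds the small subunit to the mRNA, eIF1 and eIF1A govern scanning, and eIF5 and eIF5B complete the joining of the subunits. Kinases of the eif2ak family slow the process by phosphorylating eIF2, and 4E-binding proteins slow it by keeping eIF4E from eIF4G until the kinase mTORC1 phosphorylates them. These factors work on the product of the pathway in which Ddx21 acts.

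The libraries held 38459219 to 51173007 reads, of which 1.01% to 1.29% fell in the 65 genes. The gate was checked against 11 endothelial markers, all of which had reads in each library. The level is given in read counts scaled to library size (CPM). PROX1, the lowest of the 11, held 11, 16.9, 16.6 and 32.6 CPM in siblings 1 to 4. In mutants 1 to 4 it held 0.168, 18.1, 15.5 and 4.68 CPM, so that it was near 0 in mutant 1. The summed level of the 11 markers was 3374 to 5723 CPM in siblings and 2782 to 5317 CPM in mutants. The sum was lower in the mutant than in the sibling of each of the 4 pairs of equal replicate number, and 10 of the 11 markers had a log2 fold change below 0. Among these markers lyve1b, whose control region drives the red reporter, measured 722 ± 77 and 553 ± 125 CPM (SD, n = 4 each). DESeq2 called it with the replicate number as a block (adjusted p = 0.025) but not without it. The part of this lower endothelial level in the results that follow was not tested. The targeted gene DDX21 held 245, 364, 337 and 301 CPM in siblings 1 to 4 and 233, 266, 170 and 217 CPM in mutants 1 to 4, lower in each pair of equal number while mutant 2 lay above sibling 1. The allele is not given, so its RNA level checks the labels only in part. Marker RNA of other cell types was present too, and unevenly. Whether it came from sorted cells of these types was not examined. The 6 epidermal markers summed to 30013 and 47913 CPM in siblings 1 and 2 but 8025 and 2233 in siblings 3 and 4, and to 82495, 56974, 11236 and 4135 CPM in mutants 1 to 4. All 6 had a log2 fold change above 0, and none was at 0 in any library. DESeq2 with the block called epcam and cldni (adjusted p = 6.5e-09 and 0.0018) but not the other epidermal markers. Without the block it called none of them. The part of epidermal RNA in the results that follow was not tested. The 6 liver and yolk markers summed to 345 to 1759 CPM in siblings and 36.6 to 126 in mutants, and all 6 had a fold change below 0. In all 6 every mutant lay below every sibling, as in 1.83% of all tested genes. DESeq2 without the block called all of them except FGG, with the smallest adjusted p for ces2a (1.2e-10). With the block it called all 6. The part of liver and yolk RNA in the results that follow was not tested. The 2 pancreatic markers ranged from 98.5 to 10801 CPM in siblings, highest in sibling 4, and from 5.4 to 169 CPM in mutants. DESeq2 with the block called both, prss1 and ela2, as lower in mutants (adjusted p = 0.027 and 0.021). Without the block it gave them no adjusted p. The 5 muscle markers summed to 829 to 4323 CPM in siblings and 1392 to 5103 CPM in mutants, and nerve, erythroid and leukocyte markers to at most 673 CPM in any library. Of the muscle markers DESeq2 with the block called TNNT3 (ENSDARG00000068457) and actc1b as higher in mutants (adjusted p = 0.0021 and 0.0044). Of the 5 muscle markers 4 had a log2 fold change above 0, while myhz2 lay below (log2 -0.95, SE 0.51). Without the block DESeq2 called no muscle marker and gave myhz2 no adjusted p. Of the genes listed as erythroid DESeq2 called the SLC4A1 copy ENSDARG00000024560 as lower in mutants, with and without the block (adjusted p = 4.1e-06 and 3.3e-06). This copy averaged 6.5 CPM in siblings and 0.0588 CPM in mutants. The SLC4A1 copy ENSDARG00000012881 was not called (log2 -0.48, SE 0.66). Which copy is the erythroid marker was not settled. The other erythroid, nerve and leukocyte markers were not called. The part of RNA of these cell types in the results that follow was not tested. In a bulk library fewer cells of a type and less RNA per cell cannot be told apart.

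Of the 65 genes 63 had enough reads to be tested. The other two, EIF4E1B and a second copy of EIF3B (ENSDARG00000074213), stayed at or below 0.697 CPM in every library. None of the 63 passed at an adjusted p under 0.05 over all 18549 tested genes (edgeR, smallest adjusted p of a member 1), and neither did any other gene (0 of 18549, a background of 0%). At an unadjusted p under 0.05 there were 5 members against a background of 3% of all tested genes. Of these 3 were higher in mutants (background 1.33%) and 2 lower (background 1.67%). With the replicate number as a block there were 13 against a background of 5.85%, with 9 higher (background 2.98%) and 4 lower (background 2.88%), and again none passed after adjustment (smallest adjusted p of a member 0.6). At an adjusted p under 0.05 DESeq2 called 0 members without the block (background 0.334%) and 2 with it (background 2.84%), and limma-voom called 0 without the block (background 0%) and 0 with it (background 0.221%). Members had more reads than most genes, and genes with more reads passed more often: 59 of the 63 had a mean of at least 10 CPM, a level that 8892 of the 18549 tested genes reached. Among genes at that level the backgrounds were 4.5% and, with the block, 9.8%, against 8.47% and 22% of the members.

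The median log2 fold change of the 63 genes, mutant over sibling (here log2, with its standard error as SE), was 0.09, with 34 values above 0 and 29 below. Over all tested genes the median was 0.00, with 9307 of 18549 (50.2%) above 0. The classes, formed from gene names alone, were less alike. The medians were 0.43 for the eIF4G scaffolds, 0.33 for eIF5 with eIF5B, 0.29 for eIF1 with eIF1A, 0.25 for the cap-binding eIF4E proteins and 0.22 for the eIF4A helicases. They were 0.16 for the eIF2B subunits, -0.07 for the eIF2 subunits, -0.14 for the eIF3 subunits and -0.15 for the 4E-binding proteins. The smaller groups had medians of 0.18 for eIF4E-T, 0.09 for the eIF2 kinases, 0.04 for eIF5A, -0.11 for eIF2A with eIF2D and -0.19 for eIF4B with eIF4H. Single libraries set several of these signs. The median over all 63 genes was -0.02 without mutant 3 and 0.00 without mutant 1, and that of eIF1 with eIF1A was -0.07 without mutant 3. Without mutant 1 it was 0.04 for eIF4A, -0.01 for eIF2B, -0.17 for the kinases and 0.10 for eIF2A with eIF2D. Without mutant 4 it was 0.04 for eIF2 and 0.02 for eIF4B with eIF4H. The single gene of eIF4E-T gave -0.11 without mutant 3 and -0.10 without sibling 4. The kinase median kept its sign in 8 of 20 alternatives and was -0.14 with the replicate block. These medians carry no test, and 4 of the 14 classes hold only 1 or 2 tested genes.

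**Figure D1:**
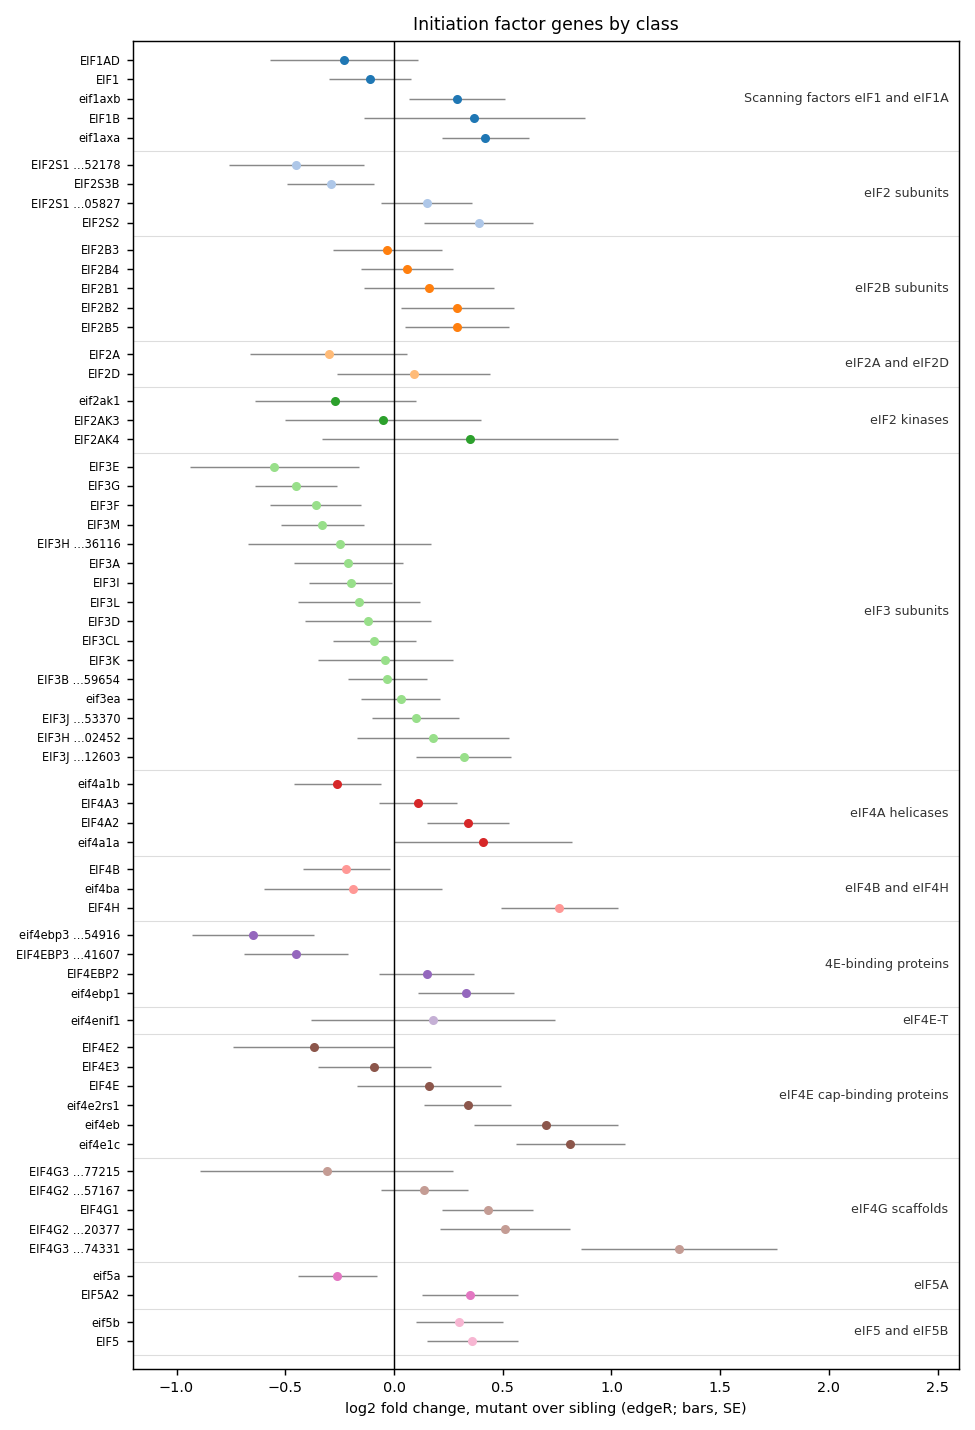
Log2 fold change of each tested initiation factor gene, mutant over sibling, with its standard error (bars), grouped by factor class; eif2ak2, at under 1 CPM in every library, is left out, and copies that share a symbol carry the last digits of their identifier. Most eIF3 subunits sit left of 0 and most eIF4E and eIF4G genes right of it, with many bars crossing 0.

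Among the cap-binding proteins the gene with the smallest p of all members was eif4e1c, a paralogue of the cap-binding eIF4E found in fish. It held 106, 86.3, 121 and 63 CPM in siblings 1 to 4 and 215, 141, 168 and 138 CPM in mutants 1 to 4. All mutants lay above all siblings, which was so for 2 of the 63 members against a background of 1.42% of all genes. Siblings averaged 94.2 ± 25.1 and mutants 165 ± 35.6 CPM (SD, n = 4 each; log2 0.81, SE 0.25, edgeR unadjusted p = 0.0087, adjusted p = 1). The two-sided exact permutation test, which leaves the pairing out, gave p = 0.029, with an adjusted p of 0.88 over all genes. The value 0.029 is the smallest that 4 against 4 libraries allow. Groups that do not overlap always give it, so it adds nothing to that separation. The difference within pairs of equal replicate number was 1.01, 0.71, 0.47 and 1.12 on the log2 scale. DESeq2 called the gene with the replicate block (log2 0.82, adjusted p = 0.00099), as it did 2.84% of all tested genes, but not without it (adjusted p = 0.45). The difference was 0.87 on the log2 scale in replicate numbers 1 and 2 alone and 0.74 in numbers 3 and 4 alone. Without mutant 1, mutant 4 and sibling 4 it was 0.58.

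Of the other cap-binding genes eif4eb, a further eIF4E copy, held 37.9, 43, 76.5 and 28.1 CPM in siblings and 96.1, 48.4, 77.4 and 78.4 CPM in mutants. It was higher in the mutant of 4 of 4 pairs, but mutant 2 lay below sibling 3, and sibling 3 lay just under mutants 3 and 4 (log2 0.70, SE 0.33, edgeR unadjusted p = 0.064). EIF4E itself (ENSDARG00000077012) measured 48.8 ± 21 and 54.4 ± 15 CPM (SD, n = 4 each; log2 0.16, SE 0.33). The genes of the related proteins that bind caps without driving general initiation gave mixed values: log2 -0.37 (SE 0.37) for EIF4E2, which in mammals represses translation, 0.34 (SE 0.20) for eif4e2rs1 and -0.09 (SE 0.26) for EIF4E3. The choice to name these 3 was made with their values known. The cap-binding genes with their 6 tested members summed to 274 to 364 CPM in siblings and 344 to 486 CPM in mutants, so that the lowest mutant lay below the highest sibling.

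The eIF4G scaffolds join the cap-binding protein to eIF4A and eIF3. EIF4G1 held 126, 101, 108 and 83.4 CPM in siblings and 177, 149, 127 and 111 CPM in mutants, with the mutant higher in 4 of 4 pairs by 0.49, 0.56, 0.23 and 0.41 on the log2 scale. Only mutant 4 lay below the highest sibling. Siblings averaged 105 ± 17.6 and mutants 141 ± 28.6 CPM (SD, n = 4 each; log2 0.43, SE 0.21, edgeR unadjusted p = 0.071, adjusted p = 1; with the replicate block unadjusted p = 0.019, adjusted p = 0.78).

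EIF4G3 has 2 copies here that gave opposite signs. The copy ENSDARG00000074331 had the largest log2 fold change of all tested members, 1.31 (SE 0.45, edgeR unadjusted p = 0.015), at low levels: 11.7, 5.9, 7.59 and 4.49 CPM in siblings and 21.4, 10.6, 14.6 and 27.2 CPM in mutants. Mutant 2 lay below sibling 1, and 0.59 was left without mutant 1, mutant 4 and sibling 4. The copy ENSDARG00000077215 measured 7.98 ± 1.71 and 6.45 ± 4.28 CPM (SD, n = 4 each; log2 -0.31, SE 0.58). EIF4G2, a relative that lacks the eIF4E-binding part and serves cap-independent initiation, gave 0.51 (SE 0.30) for ENSDARG00000020377 and 0.14 (SE 0.20) for ENSDARG00000057167.

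**Figure D2:**
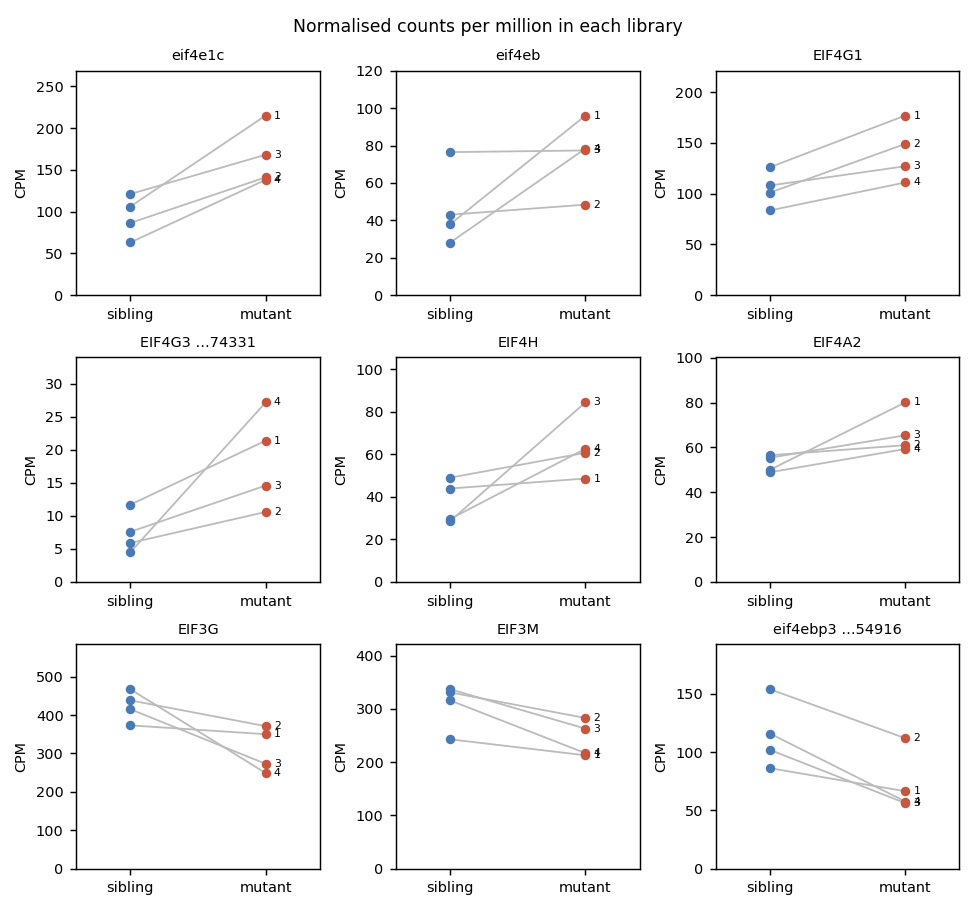
Normalised CPM (y axis, from 0) of 9 initiation factor genes in siblings (blue) and ddx21 mutants (red); grey lines join libraries of the same replicate number, given beside each mutant point. The mutant point is the higher one in all 4 pairs of eif4e1c, eif4eb, EIF4G1, EIF4G3, EIF4H and EIF4A2 and the lower one in all 4 pairs of EIF3G, EIF3M and eif4ebp3. All 9 are among the 11 higher and 7 lower members, of 63 tested, with one direction in 4 of 4 pairs. Members with mixed pairs are not shown.

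The helicase eIF4A unwinds the mRNA leader, and eIF4B and eIF4H stimulate it. EIF4A2 held 50, 56.5, 55.4 and 48.9 CPM in siblings and 80.1, 61, 65.4 and 59.3 CPM in mutants. It was the second member whose mutant libraries all lay above all sibling libraries (log2 0.34, SE 0.19, edgeR unadjusted p = 0.11, two-sided exact permutation p = 0.029). The main helicase copies pointed apart. For eif4a1a, named after its values had been seen, siblings held 1815, 928, 1642 and 882 CPM and mutants 3198, 1042, 1772 and 1003 CPM. This gene was high in libraries 1 and 3 of both groups and higher in the mutant of 4 of 4 pairs (log2 0.41, SE 0.41). For eif4a1b siblings held 391, 477, 387 and 450 CPM and mutants 321, 472, 327 and 303 CPM, with the mutant below its sibling in 4 of 4 pairs (log2 -0.26, SE 0.20). EIF4A3, which serves the exon junction complex, measured 206 ± 28.1 and 222 ± 22.7 CPM (SD, n = 4 each).

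EIF4H held 43.9, 49, 28.6 and 29.6 CPM in siblings and 48.6, 60.7, 84.4 and 62.6 CPM in mutants, where mutant 1 lay just under sibling 2. Its log2 fold change was 0.76 (SE 0.27, edgeR unadjusted p = 0.017, adjusted p = 1). The difference came to 0.21 in replicate numbers 1 and 2 alone and to 1.34 in numbers 3 and 4 alone. EIF4B, its partner in function, lay on the other side, at 230 ± 41.7 and 198 ± 32.2 CPM (SD, n = 4 each; log2 -0.22, SE 0.20), with the mutant lower in each of the 4 pairs.

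Around subunit joining and start codon choice, the 2 genes of eIF5 and eIF5B had a log2 fold change above 0. So did 3 of the 5 genes placed by name with eIF1 and eIF1A. That class also took in EIF1AD (log2 -0.23, SE 0.34) by its name alone. EIF5, which triggers GTP hydrolysis by eIF2, held 234, 285, 190 and 176 CPM in siblings and 292, 311, 306 and 228 CPM in mutants (log2 0.36, SE 0.21, edgeR unadjusted p = 0.12; with the replicate block unadjusted p = 0.031, adjusted p = 0.82). The gene of the joining GTPase, eif5b, measured 146 ± 19.4 and 179 ± 36.8 CPM (SD, n = 4 each; log2 0.30, SE 0.20). For the scanning factor eIF1A, eif1axa held 97.3, 79.1, 67 and 70.5 CPM in siblings and 123, 90.6, 110 and 97.2 CPM in mutants. Of the mutants numbers 2 and 4 lay below sibling 1 (log2 0.42, SE 0.20, unadjusted p = 0.06). Its copy eif1axb gave 0.29 (SE 0.22), with mutant 4 the lowest of the 8 libraries, and EIF1, which guards start codon choice, gave -0.11 (SE 0.19).

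The subunits of eIF2 did not share a direction. EIF2S2, the beta subunit, held 233, 285, 173 and 138 CPM in siblings and 278, 322, 272 and 217 CPM in mutants, higher in 4 of 4 pairs while the groups overlapped (log2 0.39, SE 0.25, edgeR unadjusted p = 0.15; with the replicate block unadjusted p = 0.02, adjusted p = 0.79). EIF2S3B, of the gamma subunit, held 250, 246, 225 and 220 CPM against 191, 232, 209 and 138 CPM, lower in 4 of 4 pairs (log2 -0.29, SE 0.20). The alpha subunit, which carries the site that stress kinases phosphorylate, has 2 copies. EIF2S1 ENSDARG00000005827 measured 127 ± 10 and 142 ± 35.1 CPM (log2 0.15, SE 0.21) and EIF2S1 ENSDARG00000052178 measured 99.4 ± 20.4 and 72.8 ± 29.6 CPM (log2 -0.45, SE 0.31; SD, n = 4 each), where mutants 1 and 4 were lowest at 50.7 and 44.2 CPM.

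The exchange factor eIF2B, which recharges eIF2 with GTP, had 5 subunit genes with log2 fold changes from -0.03 to 0.29 and no member at an unadjusted p under 0.05. Its catalytic subunit gene EIF2B5 measured 40.1 ± 5.01 and 48.9 ± 11.3 CPM and EIF2B2 measured 55.3 ± 13.1 and 67.5 ± 18.6 CPM (SD, n = 4 each; log2 0.29 for both, SE 0.24 and 0.26). EIF2A and EIF2D, which can deliver initiator tRNA by other routes, gave -0.30 (SE 0.36) and 0.09 (SE 0.35). EIF2A was 19.7 CPM in mutant 1 and 46.1 to 66.7 CPM in the other mutants.

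No kinase gene of eIF2 had an unadjusted p under 0.05 in edgeR, and 2 of the 4 fold changes lay above 0. The heme-regulated kinase gene eif2ak1 held 14.1, 41.2, 23.5 and 24.7 CPM in siblings and 25.4, 22.2, 25.6 and 12.8 CPM in mutants (log2 -0.27, SE 0.37). EIF2AK3, the kinase PERK of the endoplasmic reticulum, ranged from 5.53 to 11 CPM in siblings and from 5.47 to 10.7 CPM in mutants (log2 -0.05, SE 0.45). EIF2AK4, the amino acid sensor GCN2, stood at 24.4 CPM in mutant 1 and 2.71 CPM in mutant 4 against 4.94 to 12.1 CPM in siblings. Its within-pair differences were 1.31 and 0.99 in numbers 1 and 2 but -1.31 and -1.09 in numbers 3 and 4 (log2 0.35, SE 0.68). The interferon-induced kinase gene eif2ak2 had 0 to 37 reads in a library, and 3 libraries had 0. Beside EIF2AK4 it was the other kinase gene above 0, at log2 0.23 with an SE of 1.90 and at most 0.839 CPM. With a minimum count of 50 the median of the kinases was -0.06.

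The 4E-binding proteins split into a pair of genes above 0 and a pair below. The gene eif4ebp3 (ENSDARG00000054916) held 86.3, 154, 102 and 116 CPM in siblings and 66.5, 112, 56.3 and 57.7 CPM in mutants. The mutant was the lower library in each of the 4 pairs, and mutant 2 lay among the siblings. Siblings averaged 115 ± 29 and mutants 73.2 ± 26.5 CPM (SD, n = 4 each; log2 -0.65, SE 0.28, edgeR unadjusted p = 0.045, adjusted p = 1). DESeq2 with the replicate block called it (log2 -0.68, adjusted p = 0.024), and without the block it did not (adjusted p = 1). Without mutant 1, mutant 4 and sibling 4 the value was -0.42.

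The gene with the same symbol, EIF4EBP3 (ENSDARG00000041607), held 179, 321, 326 and 318 CPM in siblings and 195, 259, 213 and 170 CPM in mutants. Sibling 1 was the exception among siblings, and the other 3 lay above every mutant (log2 -0.45, SE 0.24, edgeR unadjusted p = 0.089). On the other side eif4ebp1 held 370, 330, 326 and 423 CPM in siblings and 610, 467, 395 and 351 CPM in mutants (log2 0.33, SE 0.22). EIF4EBP2 measured 532 ± 100 and 592 ± 121 CPM (SD, n = 4 each; log2 0.15, SE 0.22). The gene of the transporter that carries eIF4E into the nucleus, eif4enif1, ranged from 3.69 to 16.5 CPM in siblings and from 5.33 to 18.7 CPM in mutants.

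**Figure D3:**
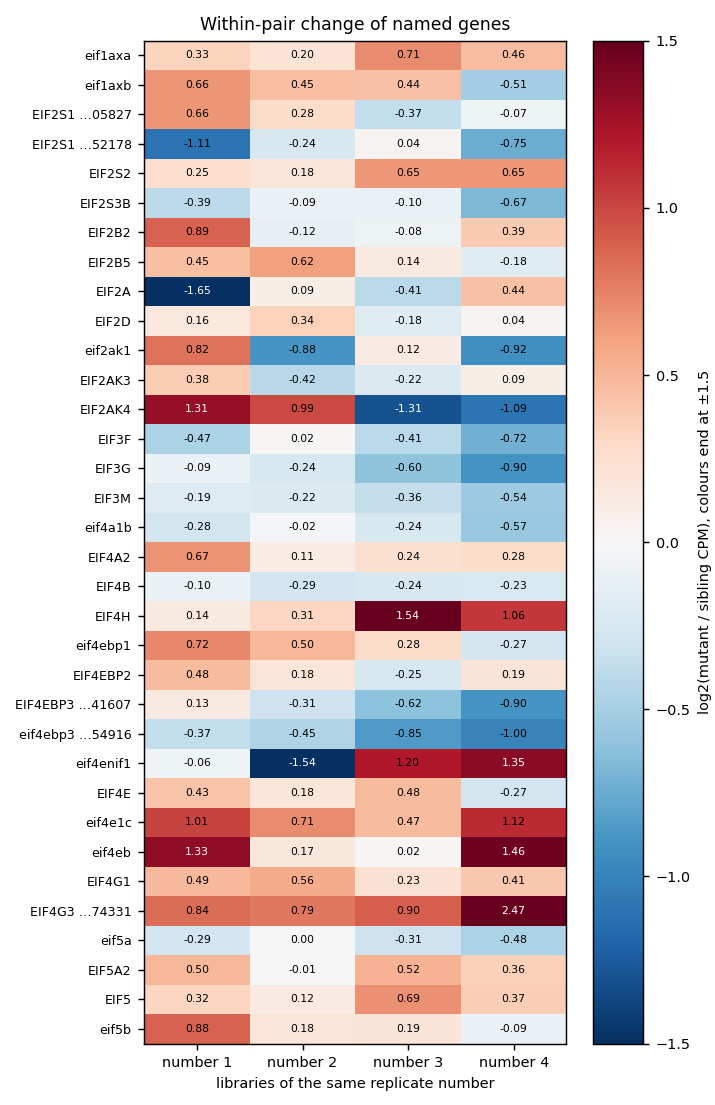
Log2 ratio of CPM (0.5 added), mutant over sibling, for each replicate number (columns) and each named initiation factor gene except eif2ak2, left out for its low level (rows); red is higher and blue lower in the mutant. Rows of one colour throughout include eif4e1c, EIF4G1, EIF4A2 and EIF5 in red and EIF3G, EIF3M, EIF4B and eif4ebp3 in blue, while EIF2AK4 turns from red to blue between numbers 2 and 3.

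The eIF3 complex, the largest factor, is measured by 16 tested genes of 17. Of their log2 fold changes 12 lay below 0 and 4 above. EIF3G, a subunit that contacts RNA, held 373, 438, 415 and 467 CPM in siblings and 350, 371, 273 and 249 CPM in mutants. It was the single member whose mutant libraries all lay below all sibling libraries. That is 1.59% of the 63 members, near the background of 1.83% of all tested genes. Siblings averaged 423 ± 39.9 and mutants 311 ± 58.8 CPM (SD, n = 4 each; log2 -0.45, SE 0.19, edgeR unadjusted p = 0.045, adjusted p = 1, two-sided exact permutation p = 0.029). In replicate numbers 1 and 2 alone the difference was -0.19 and in numbers 3 and 4 alone it was -0.75.

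EIF3M held 243, 331, 337 and 316 CPM in siblings and 213, 283, 263 and 217 CPM in mutants, lower in 4 of 4 pairs, with sibling 1 inside the range of the mutants (log2 -0.33, SE 0.19, edgeR unadjusted p = 0.12; with the replicate block unadjusted p = 0.036, adjusted p = 0.83). EIF3F held 252, 272, 271 and 257 CPM in siblings and 182, 277, 204 and 155 CPM in mutants, where mutant 2 was the highest of the 8 libraries (log2 -0.36, SE 0.21; with the replicate block unadjusted p = 0.04, adjusted p = 0.83). The subunits nearest to 0 were EIF3B (ENSDARG00000059654), at 600 ± 59.8 and 587 ± 68.9 CPM, eif3ea, at 275 ± 38.1 and 281 ± 27.8 CPM, and EIF3K, at 45.5 ± 17.2 and 44.3 ± 9.74 CPM (SD, n = 4 each), all named after their values had been seen. Both EIF3J genes, whose protein is a loosely bound partner of the complex, were above 0, at 0.32 (SE 0.22) and 0.10 (SE 0.20).

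One library weighed on the eIF3 values. Relative to the mean of the siblings the mean log2 level of the 16 genes was -0.42 in mutant 4 but -0.08, 0.05 and -0.05 in mutants 1 to 3, against -0.07 to 0.10 in siblings. The median log2 fold change was -0.14 with all libraries, -0.03 without mutant 4 and -0.26 without mutant 2. Without mutant 1, mutant 4 and sibling 4, to which limma-voom gave the smallest quality weights (0.62, 0.49 and 0.45), it was -0.01.

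The order of the mutants in this mean, lowest in mutant 4 and highest in mutant 2, was also that of all 18549 tested genes, which stood at -0.13, 0.07, -0.01 and -0.22 in mutants 1 to 4 and -0.23 to 0.13 in siblings. That mean counts each gene alike, and only 8892 of these genes had a mean of at least 10 CPM. Libraries also differed in the number of genes with a read. It was 19366, 22798, 23518 and 18051 in mutants 1 to 4 and 25329, 25086, 21623 and 18064 in siblings 1 to 4. The part of this difference in the means was not tested. Transcripts of cytosolic ribosomal proteins had the same order of mutants as the eIF3 genes, over a wider range. Their mean log2 level relative to siblings was -0.54, 0.26, -0.13 and -0.80 in mutants 1 to 4 and -0.21 to 0.22 in siblings. Their median log2 fold change was -0.27 over 79 genes chosen by name, with 75 below 0, and 0.02 without the 3 libraries of low weight. Their smallest p belonged to rps27l (log2 1.36, SE 0.26), RPL22L1 (log2 -1.42, SE 0.32) and RPL3 (log2 -0.56, SE 0.17), and none passed over all genes in edgeR. DESeq2 called rps27l and RPL22L1 without the block (adjusted p = 0.0018 and 0.022) and all 3 with it (adjusted p = 3.1e-07, 0.00012 and 9.6e-06). The means of the cap-binding and scaffold classes did not follow that order: the eIF4G mean stood at 0.45, 0.22, 0.15 and 0.71 in mutants 1 to 4, with mutant 4 the highest, and the eIF4E mean at 0.36, 0.07, 0.34 and 0.29. The eIF4G genes were not alike in this. Of the mutants, number 4 was the lowest for EIF4G1 (111 CPM) and the highest for the low-level EIF4G3 copy ENSDARG00000074331 (27.2 CPM). No test was run of whether these classes differ from each other.

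**Figure D4:**
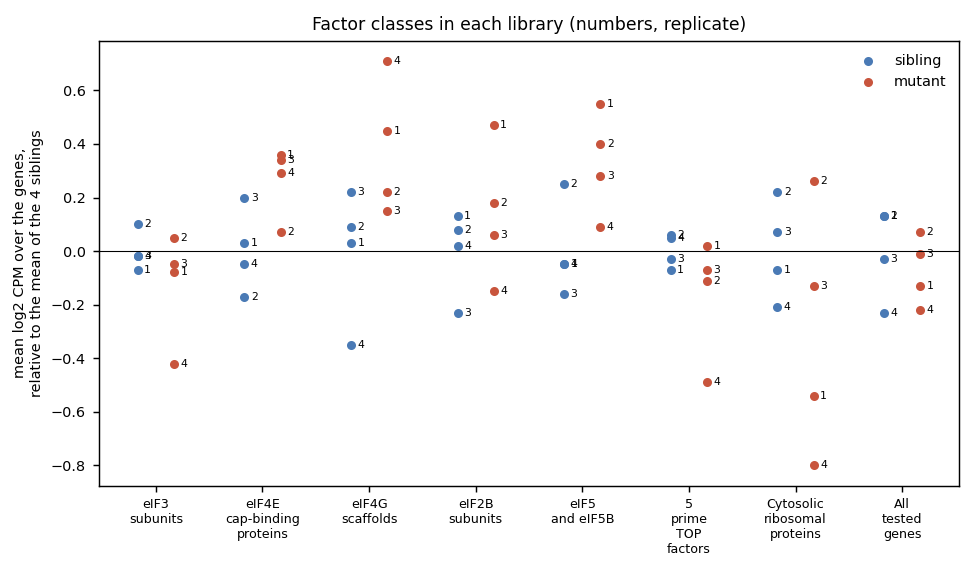
Mean log2 CPM over the genes of a class in each library, relative to the mean of the 4 siblings (y axis), for 6 groups of initiation factors, cytosolic ribosomal proteins and all tested genes; blue points are siblings, red points mutants, and digits are replicate numbers. Mutant 4 is lowest for eIF3 (-0.42) and ribosomal proteins (-0.80) and highest for the eIF4G genes (0.71).

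In mammals a few initiation factor mRNAs share with ribosomal protein mRNAs a terminal oligopyrimidine (TOP) start, which places them under mTORC1. The zebrafish genes of those factors, eIF3e, eIF3f, eIF3h and eIF4B with their copies, numbered 7. All 7 were tested, 5 lay below 0 and the median was -0.22, against 0.12 for the 56 other members tested and -0.12 for the 11 eIF3 genes tested outside this group. With the replicate block these 3 medians were -0.22, 0.10 and -0.19, so that the other eIF3 genes lay close to the 7. The mean log2 level of the 7 genes was -0.49 in mutant 4 and -0.11 to 0.02 in the other mutants. Their median ran from -0.30 without sibling 3 to -0.15 without sibling 4. Whether the zebrafish mRNAs carry such a start was not examined. Separate copies differed, as EIF3E gave -0.55 (SE 0.39) and eif3ea 0.03 (SE 0.18), and the EIF3H genes gave -0.25 (SE 0.42) for ENSDARG00000036116 and 0.18 (SE 0.35) for ENSDARG00000102452.

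Zebrafish keep duplicates of many factors, and the ratio of copies compares genes within a library. Each CPM had 0.5 added before the ratio, so at low levels it is not wholly free of the scaling between libraries. For EIF4G3 the log2 ratio of ENSDARG00000074331 to ENSDARG00000077215 was 0.93, -0.55, -0.35 and -0.66 in siblings 1 to 4, and in mutants it ran from 0.63 in mutant 2 to 2.32 in mutant 1. It was higher in the mutant of 4 of 4 pairs, and the groups overlapped only through sibling 1 and mutant 2. For eif4a1a over eif4a1b it was 2.21, 0.96, 2.08 and 0.97 in siblings and 3.31, 1.14, 2.44 and 1.73 in mutants, again higher in 4 of 4 pairs.

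The eIF5A pair encodes the hypusinated factor that helps ribosomes through difficult stretches. EIF5A2 measured 401 ± 73.3 and 511 ± 118 CPM (log2 0.35, SE 0.22) and eif5a measured 1598 ± 137 and 1332 ± 184 CPM (SD, n = 4 each; log2 -0.26, SE 0.18). The log2 ratio of EIF5A2 to eif5a averaged -2.01 ± 0.38 over siblings and -1.40 ± 0.44 over mutants (SD, n = 4 each) and was higher in 3 of 4 pairs. By contrast the ratio of eif4e1c to eif4eb had means of 1.07 ± 0.34 and 1.15 ± 0.30, and the ratio of eif1axa to eif1axb had means of -1.15 ± 0.31 and -0.98 ± 0.32. In all 15 sets of copies compared the groups overlapped. Reads of closely similar copies may have been split or lost in counting, and the copies were compared after their values had been seen, with no test.

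**Figure D5:**
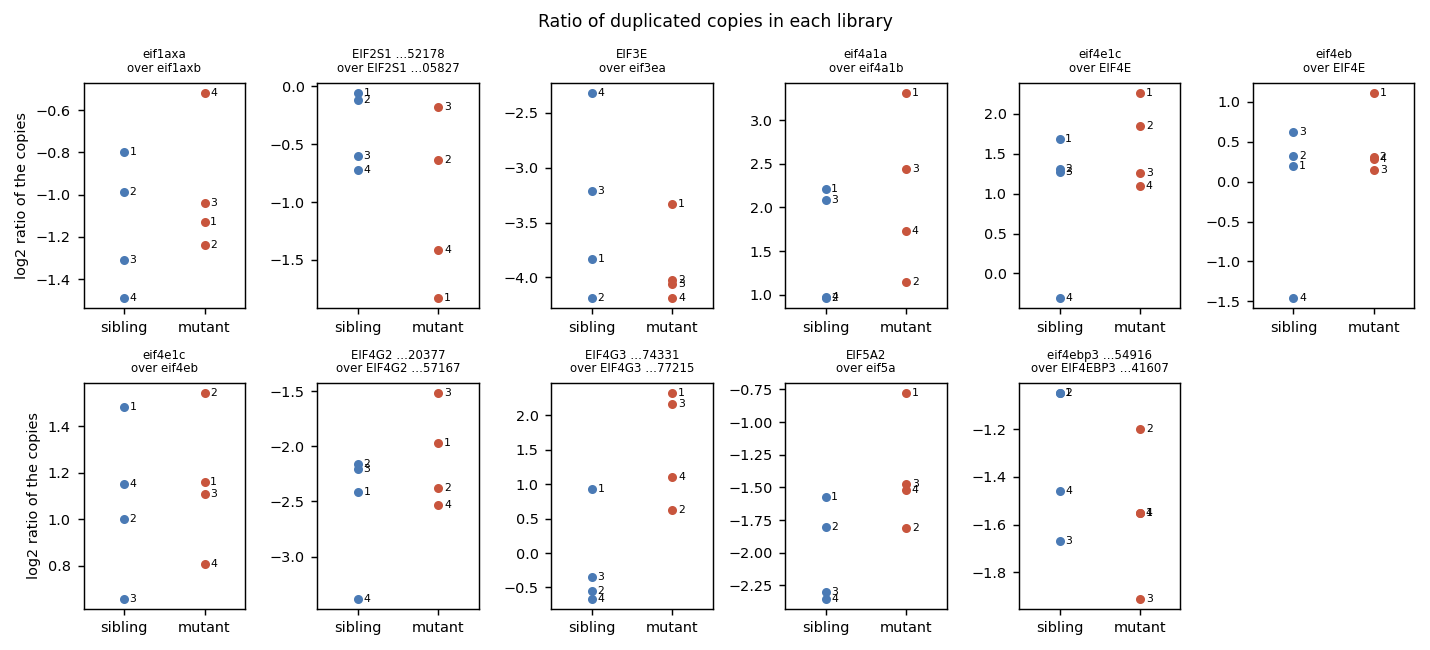
Log2 ratio of CPM (0.5 added) between duplicated copies of a factor in each library (y axis, its range set per panel), with siblings in blue, mutants in red and replicate numbers beside the points. The ratio of the EIF4G3 copies lies between -0.66 and 0.93 in siblings and between 0.63 and 2.32 in mutants.

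Genes that work beside the initiation factors were counted in 4 further lists, and none of their members passed over all genes in edgeR. Of 21 genes of poly(A)-binding proteins and initiation partners 11 lay above 0 and 10 below (median 0.04, and -0.10 without mutant 2). Among them ddx3xb, a helicase that helps ribosomes through structured leaders, measured 54.1 ± 5.42 and 66 ± 8.42 CPM (SD, n = 4 each; log2 0.29, SE 0.19), and igf2bp1, an mRNA-binding protein, measured 148 ± 15.8 and 121 ± 21.1 CPM (SD, n = 4 each; log2 -0.29, SE 0.19). Of 20 tested elongation and termination genes 9 lay above 0 (median -0.02, and 0.06 with the replicate block or without mutant 4). ETF1, the release factor, held 230, 248, 246 and 184 CPM in siblings and 360, 280, 298 and 276 CPM in mutants (log2 0.42, SE 0.18, edgeR unadjusted p = 0.048, adjusted p = 1). Its mutants all lay above its siblings, as in 1.42% of all tested genes. EEF1E1, a part of the tRNA synthetase complex, gave 0.55 (SE 0.31) and EEF1D, an exchange factor of elongation, gave -0.37 (SE 0.24).

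Targets of the integrated stress response, which follows phosphorylation of eIF2, had a median of 0.12 with 19 of 30 tested genes above 0. With the replicate block the list's median was 0.05. Within pairs 1 to 4 it was 0.09, -0.05, 0.06 and -0.14. The smallest p of these targets belonged to nupr1b, a stress-induced chromatin protein, at 47.2, 59.3, 43.2 and 87.1 CPM in siblings and 34.2, 35.3, 14.9 and 13.9 CPM in mutants (log2 -1.27, SE 0.39, edgeR unadjusted p = 0.0081, adjusted p = 1). Its mutants all lay below its siblings, as in 1.83% of all tested genes. The gene atf4b, for a transcription factor of this response, measured 708 ± 119 and 538 ± 152 CPM (SD, n = 4 each; log2 -0.40, SE 0.24), with the mutant lower in each of the 4 pairs. Both lie against the sign of the list's median. DESeq2 with the replicate block called nupr1b (adjusted p = 0.034) and atf4b (adjusted p = 0.02), as it did 2.84% of all tested genes, and without the block it called neither (adjusted p = 0.36 and 1). The tryptophan tRNA ligase gene WARS1 measured 4.35 ± 2.29 and 9.52 ± 2.41 CPM (SD, n = 4 each; log2 1.13, SE 0.62).

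For signalling through mTORC1 and the eIF4E kinases MNK, 16 of 28 genes lay above 0 (median 0.04, and -0.04 without sibling 2 or mutant 4). DEPTOR, an inhibitor of mTOR, measured 35.3 ± 6.82 and 25.4 ± 5.87 CPM (SD, n = 4 each; log2 -0.48, SE 0.26), with the mutant below its sibling in 4 of 4 pairs. PPP2CA, a phosphatase catalytic subunit, measured 198 ± 26.3 and 257 ± 52 CPM (SD, n = 4 each; log2 0.38, SE 0.20). LAMTOR1, a scaffold of mTORC1 at the lysosome, was at or below 0.611 CPM in siblings and ranged from 0.0358 to 2.35 CPM in mutants.

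In 4 of 4 pairs 11 of the 63 tested members were higher and 7 lower in the mutant. Over all tested genes the backgrounds were 8% and 8.42%, and among genes with a mean of at least 10 CPM they were 11.5% and 8.12%, against 18.6% and 11.9% of the 59 members at that level. The 11 were eif1axa, EIF2S2, EIF3J (ENSDARG00000012603), eif4a1a, EIF4A2, EIF4H, eif4eb, eif4e1c, EIF4G1, EIF4G3 (ENSDARG00000074331) and EIF5. The 7 were EIF1AD, EIF2S3B, EIF3G, EIF3M, eif4a1b, EIF4B and eif4ebp3 (ENSDARG00000054916). Replicates may share technical sources, so the p-values measure only the spread between these libraries.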

How the data were processed

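The authors deposited raw read counts per Ensembl gene, whole numbers for 32520 genes in 8 libraries. The submitters' processing notes name Subread 2.0.0, featureCounts, FastQC, edgeR and the build GRCz11, and the order, strand setting and filters were not given in the sources used here. A deposited log2 table, labelled batch-corrected, equalled log2(CPM + 1) of these counts in 260160 of 260160 values (tolerance 1e-09) and was not used further. Names came from a table covering 29201 identifiers; 14 of the 65 genes share a symbol and carry their identifier.

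Counts were filtered with edgeR 4.0.16 in R 4.3.3 (filterByExpr, minimum count 10, minimum total 15), scaled by TMM and fitted with the robust quasi-likelihood model on group, with Benjamini-Hochberg adjustment over all 18549 genes and a threshold of 0.05. CPM are TMM-normalised. SE is the log2 fold change over the root of F. Exact permutation tests used log2(CPM + 0.5). DESeq2 1.42.0 and limma 3.58.1 were alternatives. Counting error is small at this depth, and the spread between libraries limits precision (median trended dispersion 0.61 over all 18549 tested genes). A mean of at least 10 CPM was reached by 47.9% of these genes and by 93.7% of the tested members. The median dispersion of the members alone was not taken. Same-group replicates differed beyond counting noise (chi-square over its degrees of freedom from 112 to 852).

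Replicate numbers came from the titles. Deviations of same-numbered libraries correlated at 0.14, 0.23, 0.11 and 0.27, so the numbers were taken to pair them. Each mutant correlated best with the sibling of its own number, and siblings 2 to 4 with the mutant of theirs. Sibling 1 correlated best with mutant 2 instead. The within-pair signs and the replicate block rest on this pairing. The members and lists were chosen with earlier results of these data known. Of 174 list symbols 156 matched. Named genes were members at an unadjusted p under 0.05 with or without the block, the 2 smallest p of each class, all kinases and 4E-binding proteins, the copies of eif2s1, eif4e and eif5a, and the 3 smallest p of each further list of translation genes. One gene named by this rule is not reported here.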

Additional observations from a re-analysis of the deposited data

Results flagged for a closer look

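In 3 named genes a single library stood apart from the other 3 of its group, its gap, as a share of the group's range, being above Dixon's 95% critical value; chance gives this in about 1 of 20 groups, or 3.5 of the 70 screened, so that the 3 found are no more than chance gives. EIF2A was 33.9 CPM in sibling 4 and 61.6 to 62.7 CPM in the other siblings. The gene eif4a1b was 472 CPM in mutant 2 and 303 to 327 CPM in the other mutants. EIF4EBP3 (ENSDARG00000041607) was 179 CPM in sibling 1 and 318 to 326 CPM in the other siblings.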

How the results depend on the processing

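No member passed in edgeR under any scaling, filter or left-out library. DESeq2 with the replicate block called 2, eif4e1c and eif4ebp3. The exact permutation test adjusted over all genes was added after seeing the data and called none. It could call none here, since its smallest possible p of 0.029 came to an adjusted p of 0.88. The count at an unadjusted p under 0.05, 5 in the main fit, was 13 with the replicate block, 19 in DESeq2 with the replicate block, 2 in limma-voom, 14 in limma-voom with the replicate block and 1 without mutant 1, mutant 4 and sibling 4. Leaving out single libraries gave 2 to 8: 8 without sibling 1 or mutant 2, 3 without sibling 4 and 2 without mutant 3. The cause was not tested. The median over members was 0.09, and -0.02 to 0.09 without single libraries. For eIF1 with eIF1A that range was -0.07 to 0.46 and for the eIF4E proteins 0.17 to 0.42. For eIF4B with eIF4H it was -0.24 to 0.02, and 0.21 in replicate numbers 1 and 2 alone. Of 35 named genes 26 kept their sign under all of up to 20 alternatives. Many were named for a small p in these same libraries, which favours a kept sign, so the count is no separate support. The eIF3, eIF4A, eIF4E, eIF4G and eIF5 with eIF5B medians kept their sign too.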
